A study of Mus musculus with 8 samples.

Results

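Chemokines are small secreted proteins that attract and position leukocytes and other cells, and their receptors couple to inhibitory G proteins. The genes described here are all those named as Ccl, Cxcl, Ccr or Cxcr genes with a number, together with Cx3cl1, Cx3cr1, Xcl1, Xcr1 and the atypical receptors Ackr1 to Ackr4. They were measured in epithelial cells taken from the lungs of mouse embryos on day E18.5. Of 19938 genes on the arrays whose probe sets carry a single symbol, 56 met this rule. They comprised 34 ligands (13 CXC, 19 CC and 2 other) and 22 receptors, of which 4 were atypical. The rule goes by gene names and uses no measured value, but it was set with earlier results of these data known.

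Knockout arrays (n = 4) came from embryos labelled Mst1/2 CKO, in which the Hippo kinases Mst1 and Mst2 had been conditionally deleted with ShhCre, a Cre recombinase active in epithelial progenitors of the developing lung. Control arrays (n = 4) came from E18.5 embryos labelled Control, and whether these carried Cre or the conditional alleles is not given in the sources used here. In both groups cells bearing the surface protein Epcam were collected with magnetic beads, so any other cells that stayed with the beads add RNA from cells in which ShhCre does not target the kinases. The titles call the arrays biological replicates, and nothing says whether an array holds 1 embryo or a pool. The comparison asks which chemokine transcripts differ in this epithelium when the Hippo kinases are missing. Expression is given on the log2 scale and differences as knockout minus control; errors are SD over the 4 arrays of a group or limma's SE of a difference, and p-values are limma's, adjusted over all 19938 genes.

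CXC and CC chemokines differ in the spacing of their first cysteines. CXC ligands with a glutamate, leucine and arginine motif mainly attract neutrophils, and many CC ligands attract monocytes, macrophages and lymphocytes. Atypical receptors bind chemokines without the usual G protein signal and remove or hold them. In the lung, epithelium, macrophages, endothelium and mesenchyme each make their own set of ligands, while most classical receptors are known from leukocytes.

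All 12 general epithelial markers were well above background, and so were many markers of other cells. The cells were selected by Epcam and no unselected sample was measured, so these levels do not measure purity. The selected gene Epcam averaged 10.07 ± 0.17 in knockout and 10.06 ± 0.15 in control arrays, and the mean of 12 general epithelial markers was 11.02 to 11.16 in knockout and 11.04 to 11.23 in control arrays. Of 10 general leukocyte markers 9 were well above background in at least 1 group (a group mean of 7.41 or more), with list means of 9.12 to 9.39 in knockout and 8.71 to 9.74 in control arrays, the lowest in control replicate 1 and the highest in control replicate 2. All 12 endothelial and 10 of 12 mesenchymal markers were so too. For scale, 10920 of all 19938 genes were well above background. The targeted gene Stk4, which encodes Mst1, read 9.24 to 9.45 in knockout and 9.59 to 9.84 in control arrays (−0.30, SE 0.076, adjusted p = 0.0188), a check of limited weight because its probe set may lie outside the deleted part. The Mst2 gene Stk3 was not analysed here.

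Background was judged from 1185 odorant, vomeronasal and trace amine receptor genes, which are not known for use in lung epithelium. The 95th percentile of their means was 6.41, and a gene was called well above background where a group mean reached 7.41. By this measure 19 of the 56 genes were well above background in at least 1 group, 18 lay between the bounds and 19 stayed under 6.41 in both groups. Of all 19938 genes, 10920 were well above background, a larger share than among the 56. Of the 1185 background genes, 9 lay above 7.41 as well. Probe sets differ in their own background and brightness, so levels rank no gene above another. With the 99th percentile in place of the 95th, 12 genes were well above background. Just inside the limit lay Cxcl17 (7.16 in knockout, 7.43 in control) and Cxcl10 (7.36 and 7.50), and just outside it Ccl25 (7.31 in both groups) and Ccl11 (7.31 and 7.17). The plot of levels by class shows where each gene stands.

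**Figure D1:**
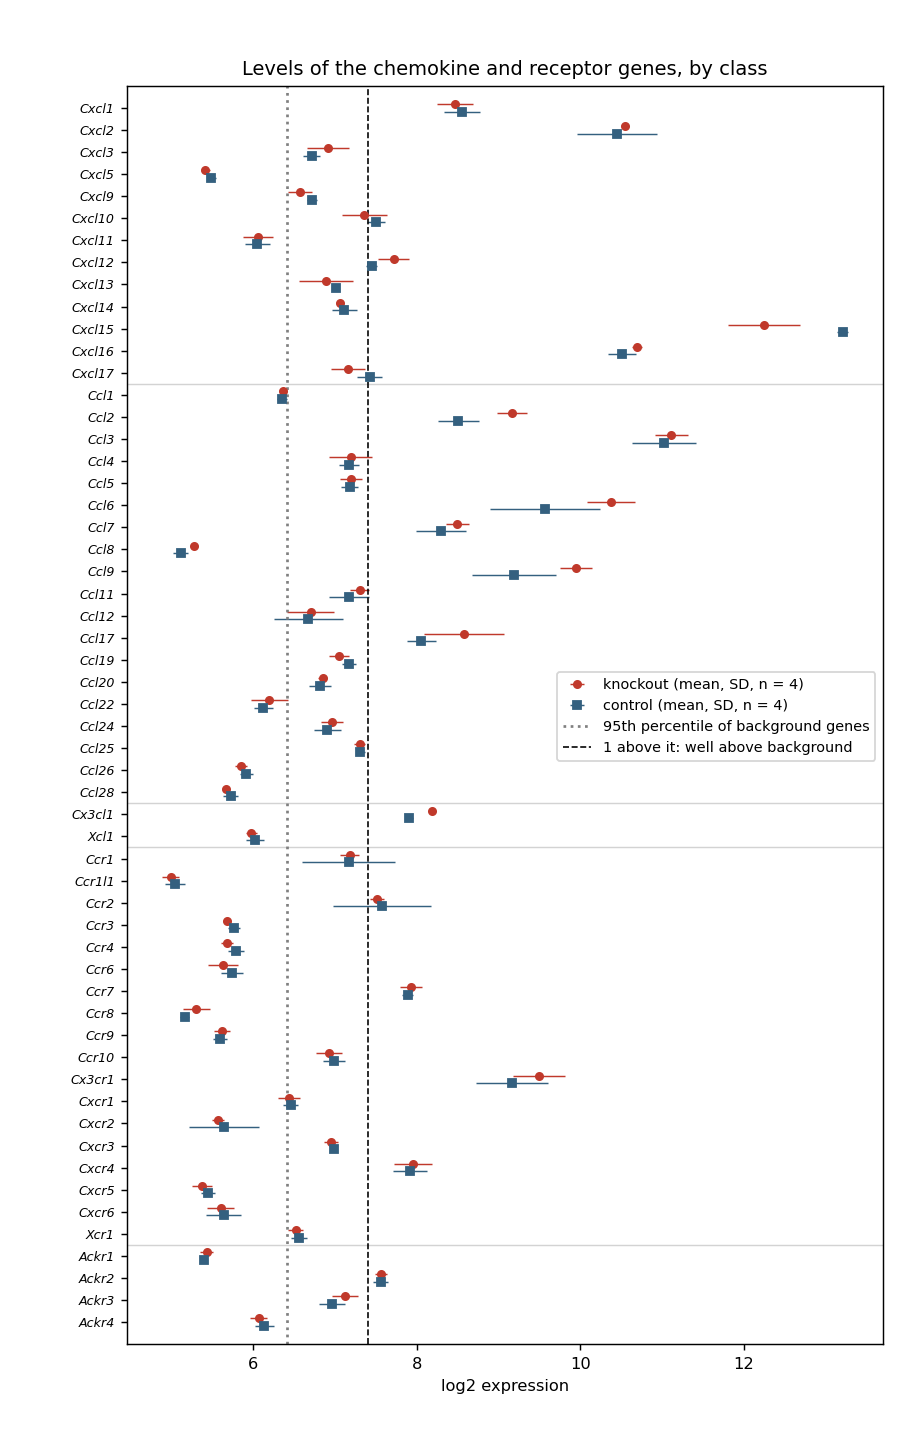
Log2 expression of the 56 genes, grouped by class from CXC ligands at the top to atypical receptors at the bottom, with knockout circles above control squares (mean and SD, n = 4 arrays each) and lines at 6.41 and 7.41. Markers of 19 genes reach the right-hand line in at least 1 group, and those of 19 others stay left of the dotted line.

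Of the 19 genes, 2 are known as epithelial ligands (Cxcl15 and Cxcl17), 8 as products of epithelium and of other cells (Cxcl1, Cxcl2, Cxcl10, Cxcl16, Ccl2, Ccl7, Ccl17 and Cx3cl1), 7 mainly from leukocytes (Ccl3, Ccl6, Ccl9, Ccr2, Ccr7, Cxcr4 and Cx3cr1) and 2 from mesenchyme or endothelium (Cxcl12 and Ackr2). These assignments are background and were not tested here. The ligands Ccl20, Ccl28 and Cxcl5, also made by mucosal epithelia, were not well above background. Ccl20 averaged 6.86 in knockout and 6.82 in control arrays, Ccl28 averaged 5.67 and 5.73, and Cxcl5 averaged 5.41 and 5.49.

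Of the 56 genes, 3 rose (Cx3cl1, Ccl2 and Ccl9), 1 fell (Cxcl15) and 52 did not pass limma's test. Among all genes 8.6% were called higher and 10.2% lower, 18.8% together, and the 4 calls are 7.14% of the 56 genes, of which 37 were not well above background. Among genes well above background, a choice that favours genes high in 1 group, 4 of 19 (21.1%) were called, against 28.7% of all such genes. The median difference was 0.0071 over the 56 genes and −0.016 over all genes. At an unadjusted p under 0.05 there were 9 of the 56 genes (16.1%), against 29.6% of all genes. The 4 calls were all ligands and all well above background.

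Cxcl15, a CXC ligand also called lungkine that mouse lung epithelium secretes into the airspace and that draws neutrophils, was the gene that fell. It read 12.61, 12.35, 12.41 and 11.61 in knockout replicates 1 to 4, against 13.25, 13.28, 13.18 and 13.12 in control replicates 1 to 4. Every knockout value lay below every control value, and knockout replicate 4 lay apart at the low end. The means were 12.25 ± 0.44 in knockout and 13.21 ± 0.071 in control arrays, 1.95-fold lower in knockout (log2 difference −0.96, SE 0.17, adjusted p = 0.0028). Array maxima lay between 13.69 and 13.95, so the control values stand near the top of the range, where differences can be compressed. Fewer cells that make a transcript and less transcript per cell cannot be told apart in RNA of a whole cell preparation.

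The knockout arrays, but not the control arrays, took the same order for Cxcl15 as for the mean of 12 alveolar type 2 markers, genes of the surfactant-producing cell. That mean was 11.51, 11.24, 11.32 and 10.95 in knockout replicates 1 to 4, against 12.34, 12.45, 12.36 and 12.22 in control replicates 1 to 4. Of these markers 11 of 12 fell and 0 rose, among them Lyz2, the lysozyme shared with macrophages (−0.93, SE 0.086). The airway secretory mean was lower as well, at 7.84 to 8.26 in knockout and 8.64 to 8.81 in control arrays, with 4 of 8 markers called lower. For scale, 15.2% of all genes well above background were called lower. The part of these cell types in the Cxcl15 difference was not tested. When the mean of the mesenchymal markers was a covariate, Cxcl15 kept its direction but was no longer called (−0.65, adjusted p = 0.0724), and without knockout replicate 4 it was called at −0.75 (adjusted p = 1.05e-04).

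Cxcl15 stands on chromosome 5 in an unbroken run of 4 of these genes in the order Cxcl3, Cxcl15, Cxcl1 and Cxcl2, and no other gene of the run was called. Cxcl1 and Cxcl2 are neutrophil attractants of the glutamate, leucine and arginine group that inflammatory signals induce. Cxcl1 read 8.64, 8.66, 8.40 and 8.19 in knockout replicates 1 to 4, against 8.53, 8.60, 8.81 and 8.27 in control replicates 1 to 4 (−0.08, interval −0.36 to 0.20, adjusted p = 0.762). The Cxcl2 values were 10.49, 10.54, 10.54 and 10.60 in knockout replicates 1 to 4, against 9.73, 10.63, 10.81 and 10.62 in control replicates 1 to 4 (0.09, interval −0.33 to 0.52). For Cxcl2 the groups overlapped, control replicate 1 was the low array, and leaving it out turned the sign (−0.15, adjusted p = 0.223). Cxcl3 differed by 0.20 (adjusted p = 0.285). Intervals are limma's 95% intervals of the difference.

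The window around the start of the called Cxcl15 gene is shown with that of Cx3cl1, a called gene that moved the other way, so that the 2 can be read side by side. Sequences are from RefSeq, assembly GRCm38.p6, in the sense of transcription, with 250 bases before the annotated start and 50 bases from it on. Capitals mark matches to the motifs searched. Cxcl15 lies on the plus strand at chr5:90794284-90794583 and Cx3cl1 on the plus strand at chr8:94771930-94772229.
Cxcl15: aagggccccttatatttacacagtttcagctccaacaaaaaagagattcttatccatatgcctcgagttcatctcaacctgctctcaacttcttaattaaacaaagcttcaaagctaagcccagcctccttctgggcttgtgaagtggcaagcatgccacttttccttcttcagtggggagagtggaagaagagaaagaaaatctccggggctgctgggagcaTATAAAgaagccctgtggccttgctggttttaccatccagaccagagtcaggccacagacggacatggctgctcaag
Cx3cl1: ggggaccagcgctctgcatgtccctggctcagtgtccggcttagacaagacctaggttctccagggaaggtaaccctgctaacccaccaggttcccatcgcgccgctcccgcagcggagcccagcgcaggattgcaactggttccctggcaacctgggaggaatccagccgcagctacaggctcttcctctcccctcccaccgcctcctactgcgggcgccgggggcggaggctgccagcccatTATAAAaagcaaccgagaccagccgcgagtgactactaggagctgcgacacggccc

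The motifs were TATAAA on the forward strand and, on both strands, GGAATG (bound by Tead factors), GGAAGT (an ETS factor core), CAAGTG (bound by Nkx2-1) and the NF-kB consensus. The capitals in both windows are TATAAA, first base at position −27 in Cxcl15 and −6 in Cx3cl1, and the other motifs had no match there. Over all 32851 windows of this length, TATAAA stood in 8.32%, GGAATG in 14.7%, GGAAGT in 23.8%, CAAGTG in 13.6% and the NF-kB consensus in 8.46%. The table held 44 windows for 42 of the 56 genes. Of these 44, TATAAA stood in 12 (27.3%), GGAATG in 6 (13.6%), GGAAGT in 19 (43.2%), CAAGTG in 7 (15.9%) and the NF-kB consensus in 11 (25.0%). Such matches are letters in a window and say nothing about binding.

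Cx3cl1 encodes fractalkine, a ligand made as a membrane protein by epithelium, endothelium and neurons and released by shedding. It read 8.19, 8.18, 8.23 and 8.16 in knockout replicates 1 to 4, against 7.97, 7.85, 7.91 and 7.91 in control replicates 1 to 4. The groups did not overlap and each spanned little. The means were 8.19 ± 0.028 in knockout and 7.91 ± 0.049 in control arrays (1.22-fold higher, log2 difference 0.28, SE 0.053, adjusted p = 0.00338). This was the call that held in all 17 alternatives run, between 0.26 and 0.30, with the highest adjusted p at 0.0409 under the mesenchymal covariate. The endothelial marker mean was higher in knockout as well, at 9.35 to 9.47 against 8.97 to 9.27 in control arrays. Of its 12 markers 6 were called higher, against 13.5% of all genes well above background. The part of endothelial cells in the Cx3cl1 difference was not tested.

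The receptor of fractalkine, Cx3cr1, is known from monocytes, macrophages and microglia. Its values were 9.31, 9.28, 9.42 and 9.96 in knockout replicates 1 to 4, against 8.81, 9.73, 9.32 and 8.81 in control replicates 1 to 4 (0.33, SE 0.21, adjusted p = 0.359). The groups overlapped, with knockout replicate 4 and control replicate 2 at the top, the same arrays that had the highest macrophage and monocyte marker mean in their groups (9.37 and 9.26). The difference was 0.17 (adjusted p = 0.596) without knockout replicate 4 and 0.51 (adjusted p = 0.0849) without control replicate 2.

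Ccl2, the monocyte attractant MCP-1, read 9.01, 9.09, 9.14 and 9.42 in knockout replicates 1 to 4, against 8.36, 8.51, 8.87 and 8.31 in control replicates 1 to 4. All knockout values lay above all control values. The means were 9.16 ± 0.18 in knockout and 8.51 ± 0.25 in control arrays (1.57-fold higher, log2 difference 0.65, SE 0.13, adjusted p = 0.0044). The call ended with the mesenchymal covariate (0.58, adjusted p = 0.0735) and without control replicates 1 and 2 together (0.58, adjusted p = 0.0593), the arrays with the lowest and highest leukocyte mean, a choice made after seeing the data. The mesenchymal mean was 7.97 to 8.48 in knockout and 7.70 to 8.15 in control arrays. Of its 12 markers 3 were called higher, against 13.5% of all genes well above background. The part of mesenchymal cells in the Ccl2 difference was not tested.

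On chromosome 11 Ccl2 is followed by Ccl7, Ccl11, Ccl12, Ccl8 and Ccl1, and none of these was called. Ccl7, another monocyte attractant, averaged 8.50 ± 0.15 in knockout and 8.30 ± 0.30 in control arrays (0.20, interval −0.10 to 0.50, adjusted p = 0.382). Ccl8 did not overlap between groups, at 5.25 to 5.34 in knockout and 5.02 to 5.23 in control arrays, but stayed under the background bound and was not called (adjusted p = 0.0852). Ccr2, the receptor of Ccl2 on monocytes, read 7.57, 7.48, 7.41 and 7.59 in knockout replicates 1 to 4, against 7.07, 8.41, 7.25 and 7.59 in control replicates 1 to 4. Its difference of −0.07 (SE 0.23) turned to 0.21 without control replicate 2 and was not called either way (adjusted p = 0.894 and 0.26).

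Ccl9 and Ccl6 are neighbouring CC ligands of mouse myeloid cells that act through Ccr1. Ccl9 read 9.77, 10.10, 10.14 and 9.78 in knockout replicates 1 to 4, against 8.45, 9.61, 9.22 and 9.47 in control replicates 1 to 4. The groups did not overlap, and control replicate 1 lay far below the other controls. The means were 9.95 ± 0.20 in knockout and 9.19 ± 0.52 in control arrays (1.69-fold higher, log2 difference 0.76, SE 0.21, adjusted p = 0.0316). The call ended without control replicate 3 (adjusted p = 0.0717), without knockout replicate 2 (0.0788), without knockout replicate 3 (0.0921), over all probe sets (0.0664) and with the mesenchymal covariate (0.57, adjusted p = 0.309).

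Ccl6 had the same shape: 10.06, 10.74, 10.49 and 10.22 in knockout replicates 1 to 4, against 8.57, 9.94, 9.76 and 10.01 in control replicates 1 to 4. The groups did not overlap here either, but the margin was small and the control spread wide. The means of 10.38 ± 0.30 in knockout and 9.57 ± 0.68 in control arrays differed by 0.81 (SE 0.28, interval 0.18 to 1.43), and the gene did not pass (adjusted p = 0.0759). With the leukocyte marker mean as a covariate both were called, Ccl9 at 0.74 (adjusted p = 0.00778) and Ccl6 at 0.79 (adjusted p = 0.0333). That mean hardly differed between groups (9.23 in knockout, 9.21 in control arrays). As a covariate it therefore could not take up a group difference in myeloid cells. The macrophage and monocyte mean (9.06 in knockout, 8.77 in control arrays) was not used as a covariate. Without control replicate 1 the Ccl6 difference was 0.47 (adjusted p = 0.0598) and that of Ccl9 0.51 (adjusted p = 0.0195), and with the mesenchymal covariate Ccl6 was at 0.54 (adjusted p = 0.487). Groups that did not overlap made up 6 of the 56 genes, 5 higher and 1 lower in knockout, against 22.1% of all genes, 10.2% higher and 11.9% lower.

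**Figure D2:**
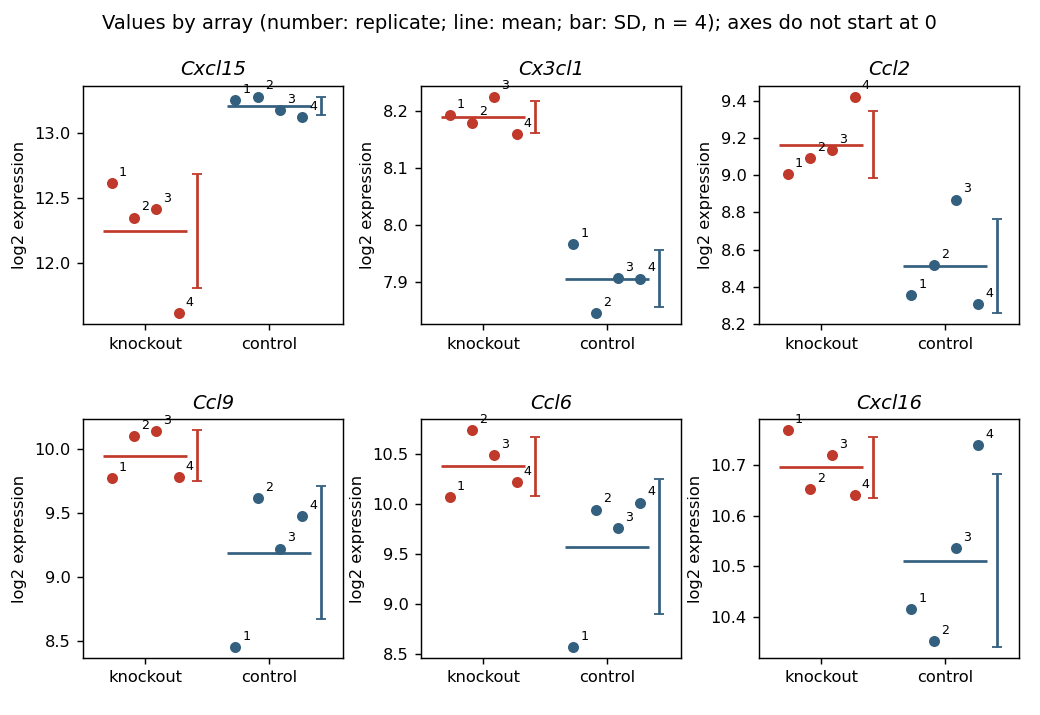
Log2 expression on each array for the 4 called genes Cxcl15, Cx3cl1, Ccl2 and Ccl9 and for Ccl6 and Cxcl16, knockout left of control, with the replicate number beside each point, a line at the group mean and a bar for the SD (n = 4). The groups do not overlap in the first 5 panels, control replicate 1 is the low point of Ccl9 and Ccl6, and in Cxcl16 control replicate 4 (10.74) lies within the knockout values.

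The windows of these neighbours are shown because their values differed alike. Ccl9 lies on the minus strand at chr11:83578587-83578886 and Ccl6 on the minus strand at chr11:83593038-83593337 (RefSeq, GRCm38.p6), both written in the sense of transcription with the same motifs in capitals.
Ccl9: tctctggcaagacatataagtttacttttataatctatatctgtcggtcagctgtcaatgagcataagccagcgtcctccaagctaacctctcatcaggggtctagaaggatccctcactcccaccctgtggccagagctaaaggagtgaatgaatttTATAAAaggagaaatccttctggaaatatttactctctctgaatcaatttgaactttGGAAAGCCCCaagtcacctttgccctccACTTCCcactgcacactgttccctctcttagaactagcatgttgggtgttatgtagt
Ccl6: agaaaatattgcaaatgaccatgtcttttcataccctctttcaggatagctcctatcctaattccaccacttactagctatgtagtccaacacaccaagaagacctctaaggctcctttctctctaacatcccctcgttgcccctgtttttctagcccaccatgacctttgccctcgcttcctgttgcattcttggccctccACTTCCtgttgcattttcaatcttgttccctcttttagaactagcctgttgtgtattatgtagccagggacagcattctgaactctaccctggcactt

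In Ccl9 the capitals are TATAAA at position −92, the NF-kB consensus on the reverse strand at −35 and the reverse complement of GGAAGT at −7. In Ccl6 they are the reverse complement of GGAAGT at −48. No matches overlapped. The windows shared 2 runs of at least 12 bases, GCCCTCCACTTCC of 13 bases (−14 in Ccl9, −55 in Ccl6), which holds the GGAAGT match of both, and ACCTTTGCCCTC of 12 bases (−20 and −86).

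Ccl3 (MIP-1 alpha), the next gene after Ccl6 in the run Ccl5, Ccl9, Ccl6, Ccl3 and Ccl4, attracts macrophages and other leukocytes. It read 11.18, 11.01, 10.91 and 11.36 in knockout replicates 1 to 4, against 10.57, 11.43, 11.26 and 10.82 in control replicates 1 to 4. The groups overlapped fully (0.10, interval −0.29 to 0.48, adjusted p = 0.784). Control replicates 1 and 2 were again the low and the high array, and without control replicate 1 the sign turned (−0.05). Ccr1, which binds Ccl3, Ccl6 and Ccl9, was not well above background and averaged 7.18 ± 0.12 in knockout and 7.17 ± 0.57 in control arrays, from 6.46 in control replicate 1 to 7.84 in control replicate 2.

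Leukocyte marker lists were followed beside these myeloid genes. Macrophage and monocyte markers had means of 8.91, 8.94, 9.01 and 9.37 in knockout replicates 1 to 4 and of 8.37, 9.26, 8.82 and 8.64 in control replicates 1 to 4. Of the 14 markers 2 were called higher (Itgam and Mrc1) and 0 lower. That is near the general share, since 13.5% of all genes well above background were called higher and 15.2% lower. Among 10 general leukocyte markers 0 rose and 1 fell, the actin bundler Lcp1 (−0.31, SE 0.074). None of 10 neutrophil markers was called in limma's test. For lymphocyte markers, 8 of 11 measured were under the background bound, and the B cell receptor gene Cd79b fell (−0.87, SE 0.14). The part of leukocyte content in the Ccl9, Ccl6 and Ccl2 differences was not tested. The leukocyte covariate, nearly equal between groups, could not test it.

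**Figure D3:**
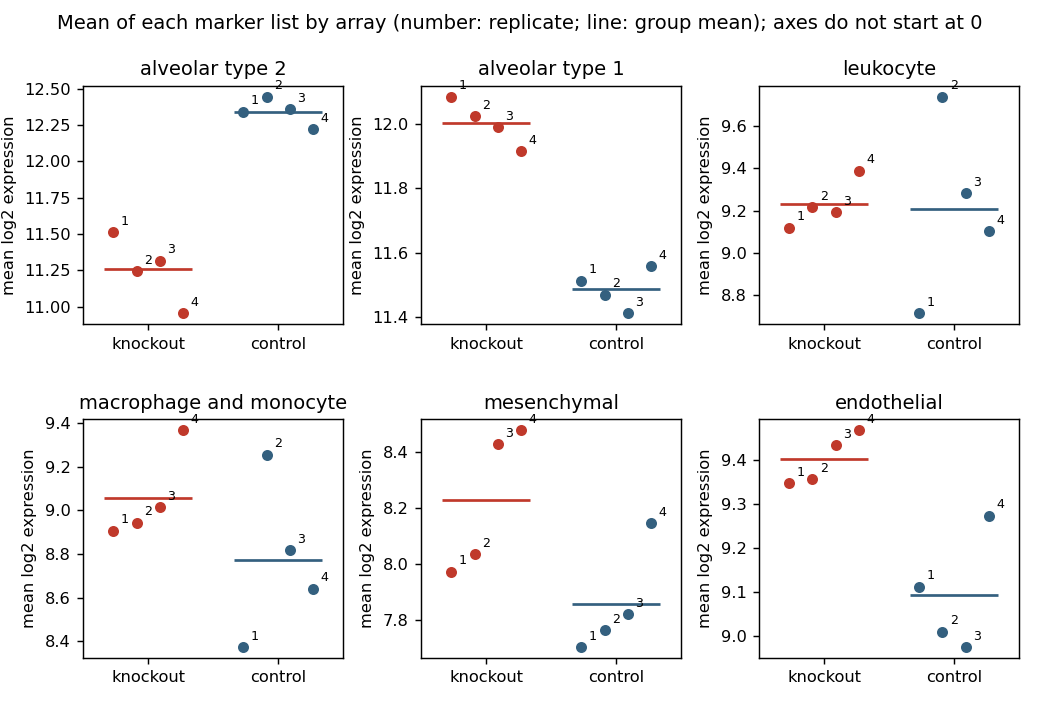
Mean log2 expression of 6 marker lists on each array, knockout left of control, with the replicate number beside each point and a line at the group mean. Type 2 marker means lie lower in all 4 knockout arrays, type 1 and endothelial means lie higher, and leukocyte, macrophage and mesenchymal means overlap between groups, with control replicates 1 and 2 at the ends of the leukocyte panel.

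Cxcl16 is a transmembrane ligand of epithelium and macrophages that also takes up oxidised lipids. It read 10.77, 10.65, 10.72 and 10.64 in knockout replicates 1 to 4, against 10.42, 10.35, 10.54 and 10.74 in control replicates 1 to 4 (0.18, SE 0.084, adjusted p = 0.17). Control replicate 4 lay among the knockout arrays, and without it Cxcl16 was called (0.26, adjusted p = 0.0277), while with the mesenchymal covariate the difference was 0.097 (adjusted p = 0.697) and without control replicates 1 and 2 together it was 0.057 (adjusted p = 0.767). Its receptor Cxcr6 stayed under the background bound, at 5.60 ± 0.16 in knockout and 5.64 ± 0.22 in control arrays.

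Cxcl12, the mesenchymal and endothelial ligand that guides cells bearing Cxcr4, came close to the threshold. It read 7.49, 7.71, 7.73 and 7.95 in knockout replicates 1 to 4, against 7.36, 7.48, 7.50 and 7.47 in control replicates 1 to 4 (0.27, SE 0.090, adjusted p = 0.0594). Knockout replicate 1 overlapped the controls, and without it the gene was called (0.35, adjusted p = 0.0126). With the mesenchymal covariate the difference was 0.12 (adjusted p = 0.602). Cxcr4 averaged 7.96 ± 0.23 in knockout and 7.92 ± 0.21 in control arrays (0.04, interval −0.24 to 0.32), and Ackr3, which scavenges Cxcl12, averaged 7.13 and 6.96 (adjusted p = 0.312) and was not well above background.

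Ccl17 (TARC), a ligand of Ccr4 made by dendritic cells and some epithelia, read 8.56, 8.09, 9.25 and 8.43 in knockout replicates 1 to 4, against 7.83, 8.24, 8.15 and 8.01 in control replicates 1 to 4. Knockout replicate 2 lay within the controls and knockout replicate 3 far above them, and the gene did not pass (0.53, SE 0.20, adjusted p = 0.103). Without knockout replicate 2 it was called (0.69, adjusted p = 0.0282), without knockout replicate 3 the difference was 0.31 (adjusted p = 0.169), and with the mesenchymal covariate it was 0.30 (adjusted p = 0.595). Ccl17 and Cx3cl1 are neighbours on chromosome 8, after Ccl22, which stayed under the background bound in both groups.

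Cxcl17, a mucosal epithelial ligand, read 7.02, 7.19, 6.99 and 7.45 in knockout replicates 1 to 4, against 7.45, 7.45, 7.58 and 7.22 in control replicates 1 to 4 (−0.27, SE 0.11, adjusted p = 0.127). Knockout replicate 4 lay within the controls, and without it Cxcl17 was called (−0.36, adjusted p = 0.0164). Cxcl10, an interferon-induced ligand of Cxcr3, averaged 7.36 ± 0.28 in knockout and 7.50 ± 0.11 in control arrays (−0.14, adjusted p = 0.53).

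No receptor was called by limma among 22, against 18.8% of all genes. None had an unadjusted p under 0.05, against 29.6% of all genes. The smallest adjusted p was 0.29 (Ccr8, itself under the background bound). Few receptors were well above background: 4 of the 18 classical ones, with 9 under the bound, and 1 of the 4 atypical ones, with 2 under it. Of all 19938 genes, 10920 were well above background. Besides Cx3cr1, Cxcr4 and Ccr2, those well above background were Ccr7, which guides dendritic cells and T cells to lymph nodes (7.93 ± 0.14 in knockout, 7.89 ± 0.067 in control, interval −0.12 to 0.21), and Ackr2, a scavenger of inflammatory CC ligands (7.57 ± 0.074 and 7.56 ± 0.091, interval −0.14 to 0.15). The 37 genes not well above background had means between 5.02 and 7.31 and differences between −0.15 (Cxcl9) and 0.20 (Cxcl3). None of them was called, and 1 had an unadjusted p under 0.05 (Ccl8). Near background a difference in transcript may not show, so these values set no limit on change.

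**Figure D4:**
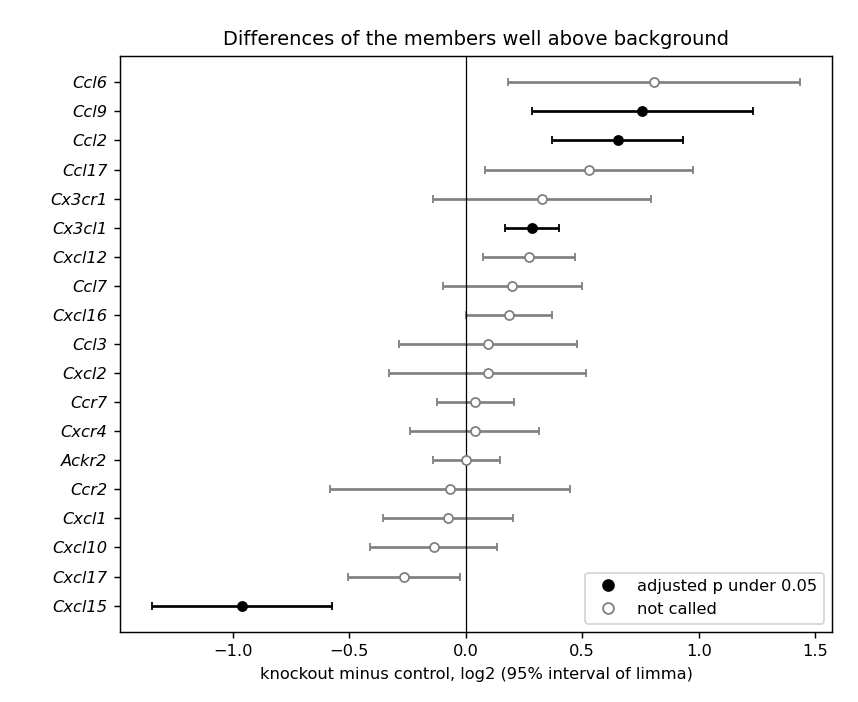
Difference knockout minus control on the log2 scale with limma's 95% interval for the 19 genes well above background, filled where the adjusted p was under 0.05. Cxcl15 (−0.96) stands alone at the low end, Cx3cl1 has a narrow interval around 0.28, and Ccl6 (0.81 over all arrays, 0.47 without control replicate 1) has a wide interval and no call.

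Around the chemokines, genes of 3 companion lists were counted. For scale, 18.8% of all genes were called, and 28.7% of those well above background. In the lists 27 of 30, 23 of 23 and 16 of 18 genes were well above background, against 10920 of all 19938 genes. The genes named are those of smallest p in each list. Among 30 measured NF-kB pathway genes and inflammatory inducers, 5 rose, 6 fell and 19 did not pass (median 0.016). The 4 with the smallest p all fell. Il33, an alarmin cytokine of epithelial nuclei, averaged 7.81 ± 0.54 in knockout and 10.28 ± 0.33 in control arrays (−2.47, SE 0.24). Myd88, the adaptor of Toll-like and interleukin-1 receptors, fell by 0.85 (SE 0.081), the tumour necrosis factor receptor Tnfrsf1a by 0.49 (SE 0.062) and the growth factor gene Csf2 by 1.07 (SE 0.17), with a knockout mean of 6.03 that lies under the background bound.

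Of 23 genes of chemokine receptor signalling 2 rose, 2 fell and 19 did not pass (median 0.076). Grk3, a kinase that desensitises these receptors, averaged 8.77 ± 0.073 in knockout and 9.89 ± 0.083 in control arrays (2.17-fold lower, −1.11, SE 0.064, adjusted p = 6.71e-06), and Stat3 fell by 0.56 (SE 0.064). The arrestin Arrb1 (0.34, SE 0.062) and the G protein subunit Gng2 (0.38, SE 0.088) rose. Of 18 genes that process or present chemokines 4 rose, 3 fell and 11 did not pass (median 0.098). Dpp4, the peptidase that trims many chemokines at their amino end, averaged 9.25 ± 0.38 in knockout and 10.66 ± 0.15 in control arrays (2.67-fold lower, −1.42, SE 0.16, adjusted p = 1.59e-04). The syndecan Sdc4, a heparan sulphate proteoglycan that can hold chemokines, fell by 0.56 (SE 0.063), while Sdc2 (0.51, SE 0.088) and the matrix protease Mmp14 (0.85, SE 0.11), which can cleave chemokines, rose.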

How the data were processed

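Total RNA of Epcam-selected E18.5 lung cells was labelled with biotin and hybridised to 8 single-colour arrays, per the labels' protocols. The deposited table holds log2 values of 35556 probe sets, made by the authors before deposit. The log2 scale was read from the values, and the sources used here name no normalization and no software for it. No further scaling was applied, and array medians lay between 7.21 and 7.30. Gene symbols came from the platform annotation in GEO: 21789 probe sets have 1 symbol, 1621 several and 12146 none given, and 21698 matched RefSeq (GRCm38.p6) by gene number. The probe set with the highest mean stood for a gene, which mattered for Ccl19 and Ccl25, and 61 probe sets gave the 56 genes. Ccl19 has near-identical copies, so its value is uncertain, and 7 chemokine probe sets with several symbols were left out. Knockout and control were compared with limma 3.58.1 (R 4.3.3; lmFit, eBayes, no covariate, two-sided, Benjamini-Hochberg over 19938 genes, threshold 0.05). The fit was tested on simulated data. The number of arrays limits the precision. Each p-value sets a group difference against limma's SE, which draws on the spread between these arrays and on the variances of all genes. Tables were made with Python 3.11.15.

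Genes, companion lists and tests were chosen with earlier results of these data known. Named are all called genes, all genes well above background, Stk4, Pf4, Ppbp and up to 4 genes of smallest p per companion list. Others were chosen after their values were seen. Alternatives were a replicate block, median centring, quantile normalization, a filter at the median level, all probe sets, an intensity trend with robust prior, leukocyte or mesenchymal marker means as covariates, and leaving out each array. Leaving out control replicates 1 and 2 together was added after seeing the data.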

Additional observations from a re-analysis of the deposited data

Results flagged for a closer look

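Of 44 groups of 4 arrays checked for a lone array by Dixon's gap test, 2 had one, and chance alone marks about 1 in 20. Pf4, the platelet chemokine Cxcl4, read 10.73 in knockout replicate 4, against 9.82 to 9.93 in the other knockout arrays. Stk4 read 9.84 in control replicate 2, against 9.59 to 9.62 in the other controls. None of the 19 chemokine and receptor genes well above background, and not Ppbp, was marked in either group. Genes nearer background were not checked.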

How the results depend on the processing

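The counts of 3 genes called higher and 1 lower were recomputed under 17 alternatives. With the replicate block 5 were higher (Ccl6 and Cxcl12 joined). Same-numbered arrays deviated little together (correlations over genes of 0.060, 0.095, −0.082 and 0.044), and not every array correlated best with its own number. Correlations over all genes cannot exclude a pairing, so whether the numbers pair the arrays is not known. With the block the SE went from 0.28 to 0.17 for Ccl6 and from 0.053 to 0.063 for Cx3cl1. With the mesenchymal covariate 1 was higher (Cx3cl1) and 0 lower. That covariate itself differed between groups (8.23 ± 0.26 in knockout, 7.86 ± 0.20 in control arrays). Under it the SE of every gene called in the main fit rose, for Ccl2 from 0.13 to 0.18. The share of all genes called under it was not counted. A loss of calls particular to these genes therefore cannot be told apart from a general one. Over all single-array omissions 2 to 4 were higher and 1 to 2 lower, with Cxcl17 the added one without knockout replicate 4. The number of genes well above background was 19, 12 with the 99th percentile and 37 with no margin. In the 19 genes, 284 of the recomputed differences kept direction and side of the threshold, 8 lost and 7 gained a call, and 19 turned sign, all in genes called in neither fit. With the mesenchymal covariate the turned values were Cxcl2 −0.091, Cxcl1 0.21, Cxcr4 −0.074 and Ccr7 −0.068. Ackr2 was −0.0078 with median centring and −0.013 with quantile normalization. Without control replicates 1 and 2 together Cxcl2 was −0.17 and Ccr2 0.094. Over single-array omissions Ccl3 lay between −0.054 and 0.23, Cxcl2 between −0.15 and 0.21, Cxcl1 between −0.17 and 0.016, Cxcr4 between −0.061 and 0.14, Ccr7 between −0.0073 and 0.081, Ackr2 between −0.035 and 0.039 and Ccr2 between −0.24 and 0.21. The cause of these shifts was not tested. The filter at the median level removed 5 of the 19 genes (Ackr2, Ccr2, Cxcl10, Cxcl12 and Cxcl17), which have no value there. Genes near background and near the top of the range are measured with the least sensitivity.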

Other observations

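CXC chemokines of platelets carry other symbols and were looked at apart. Ppbp, the precursor of the neutrophil attractant Cxcl7, read 8.68, 7.99, 8.47 and 7.53 in knockout replicates 1 to 4, against 6.71, 7.29, 7.15 and 6.91 in control replicates 1 to 4. Every knockout value lay above every control value (2.22-fold higher, 1.15, SE 0.22, limma adjusted p = 0.00413). Pf4 differed by 0.38 (SE 0.20, limma adjusted p = 0.246). Of 5 measured megakaryocyte markers, which include both genes, 2 rose, Ppbp and the platelet glycoprotein Gp9 (0.56, SE 0.068). The list mean was 8.32 ± 0.099 in knockout and 7.86 ± 0.11 in control arrays (SD, n = 4 each), and its part in the Ppbp difference was not tested. Erythroid markers had 0 of 7 called by limma, with means of 6.31 to 6.59 in knockout and 6.29 to 6.43 in control arrays.

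Ccrl2, a receptor-like gene that binds chemerin and was chosen after its values were seen, averaged 9.62 ± 0.095 in knockout and 9.66 ± 0.33 in control arrays (−0.04, SE 0.14, limma adjusted p = 0.899). Mesothelial markers rose in 2 of 6 genes, Msln (0.75, SE 0.065) and Upk1b (1.43, SE 0.17). Alveolar type 1 markers, genes of the flat gas exchange cell, rose in 9 of 12, with list means of 11.92 to 12.08 in knockout and 11.41 to 11.56 in control arrays. General epithelial markers had 2 of 12 higher and 2 lower. For scale beside these lists and the platelet and erythroid lists, 13.5% of all genes well above background were called higher and 15.2% lower.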
